A study of Mus musculus with 10 samples.

Results

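The subunits of the mitochondrial respiratory chain and of ATP synthase were followed in mouse lung tumors with and without the glucose transporter Glut1. Genes were chosen by name: symbols that begin with Ndufa, Ndufb, Ndufc, Ndufs or Ndufv and a number, with Uqcr, with Cox4 to Cox8, with Atp5, or with the mt- prefix of the mitochondrial genes for Nd, Co, Atp and Cyt proteins. Pseudogenes with "-ps" or "Gm" symbols were left out. This gave 93 of the 39017 genes counted, 80 of them nuclear and 13 encoded by mitochondrial DNA. The nuclear genes were divided into 36 for complex I, 8 for complex III, 18 for complex IV and 18 for complex V. The mt- genes were 7, 1, 3 and 2 for the same complexes.

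Both groups carried KP, the engineered alleles of a lung adenocarcinoma model in which Cre recombinase given to the lung starts the tumors. KPG1 mice (5 tumor libraries) were homozygous for floxed Slc2a1, the gene of Glut1. For the control mice, here KP (5 libraries), one label names a heterozygous floxed allele and another wild type. All were C57BL/6 males. Adenovirus with Cre under the SPC promoter was given through the trachea, so that tumors start only in cells with surfactant protein C, a marker of alveolar type 2 cells. Tumors were collected 18 weeks and 6 days later, dissociated, and depleted of CD45-positive leukocytes on magnetic beads, so each library is a bulk mixture of tumor and CD45-negative stromal cells. In such a mixture fewer cells of one type and less RNA per cell cannot be told apart. No label says whether libraries came from separate mice, so the p-values measure the spread between these libraries, which may be technical.

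Complex I takes electrons from NADH, complex III passes them from ubiquinol to cytochrome c, and complex IV hands them to oxygen. The protons pumped on the way drive complex V, ATP synthase. Each of these complexes joins proteins made in the cytosol from nuclear genes with a core made inside mitochondria from mt- genes, so that a complex is complete only if both genomes are expressed. Complex II has nuclear subunits only and was treated as a companion list.

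Depth ranged from 32427029 to 49534284 counts. Slc2a1 was at 78.8, 127, 123, 109 and 71.7 counts per 1000000 (CPM) in KP and at 47.3, 66.8, 40.8, 51.3 and 44.3 CPM in KPG1, without overlap. The difference on the log2 scale was -1.01 (exact two-sided permutation p = 0.00794, the smallest that 252 rearrangements can give), and the adjusted p of limma over all genes was 0.0675. Alveolar type 2 markers were abundant. Their summed level was 17666 to 56985 CPM in KP and 43221 to 80932 CPM in KPG1, and 8 of 8 had a positive fold change. Stromal markers were positive as well for 5 of 5 endothelial and 6 of 6 fibroblast genes, and negative for the 2 tested mesothelial genes. Summed endothelial markers were at 198 to 609 CPM in KP and at 315 to 916 CPM in KPG1. Summed leukocyte markers were at 43.2 to 71.8 CPM in KP and at 29.8 to 53.4 CPM in KPG1, and none of the 8 was at 0 in every library. A list of 10 genes induced by tissue dissociation was lower in KPG1, at 2996 to 5117 CPM against 7794 to 11415 CPM. The part of these differences in the values below was not tested.

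The mitochondrially encoded genes gave no comparison. All 13 mt- subunit genes were listed at 0 in every library, as were the remaining mt- genes of the table, 37 genes in all. The 13 comprise mt-Nd1, mt-Nd2, mt-Nd3, mt-Nd4, mt-Nd4l, mt-Nd5 and mt-Nd6, which form the membrane core of complex I, and mt-Cytb, the cytochrome b of complex III. They also comprise mt-Co1, mt-Co2 and mt-Co3, the catalytic core of complex IV, and mt-Atp6 and mt-Atp8 of the proton channel of complex V. A zero in a table that assigns no read to any mt- gene says nothing about the level of these transcripts. Neither a fold change nor a share of counts can be given for them.

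Stretches of the nuclear genome that resemble mitochondrial DNA did hold counts. The GENCODE M21 annotation of build mm10 lists 11 pseudogenes that are at least 95% identical to 9 of the 13 mt- genes over 85 bases or more, 85 bases being the read length, and 5 of these pseudogenes were in the table. Gm13340 (chr2:22588103-22589647), 97.6% identical to mt-Co1 over 1545 bases, held 166 to 453 counts per library. Its levels were 4.01, 6.13, 8.55, 9.94 and 7.74 CPM in KP and 9.90, 11.7, 9.38, 10.9 and 8.40 CPM in KPG1. The groups overlapped, and limma gave a log2 fold change of 0.52 ± 0.24 (SE, adjusted p = 0.432). Gm13341 (chr2:22587291-22587962), 95.9% identical to mt-Co2, held 48 to 193 counts, with a log2 fold change of 0.94 ± 0.30 (SE, adjusted p = 0.268). Gm10222, identical to mt-Nd4l over 294 bases, held 1 to 17 counts. From these pseudogene counts no level of the mitochondrial gene follows. Reads of both origins cannot be told apart within a shared 85-base window. Gm13340 shares 150 of the 1461 windows of mt-Co1, and Gm13341 118 of the 600 windows of mt-Co2. The origin of reads elsewhere in these pseudogenes was not tested. For mt-Co3, 99.9% of windows also occur in another annotated gene, Gm28437, which was not among the genes counted.

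Of the 80 nuclear genes 77 passed the count filter. Cox7b2, Cox8b and Cox8c did not, and are described with the isoforms. None of the 77 was called at an adjusted p of 0.05 by limma, edgeR or DESeq2, and the smallest adjusted p by limma was 0.365. Among all 16216 genes tested the share called was 0.173%. At an unadjusted p under 0.05, 2 of the 77 were higher in KPG1, where 5.26% of all genes were, and none was lower, where 6.31% of all genes were. In none of the 77 were the groups without overlap, against 2.81% of all genes. By direction 41 were higher and 36 lower, with a median log2 fold change of 0.02, the same as that of all genes tested (0.02). Trends with exon length and GC content were also fitted in each library to the deviations from the gene means, and removed. This moved the split to 55 higher and 22 lower, with the median at 0.09. The number in each library's title, used as a covariate, moved the split to 54 and 23. These numbers were 1, 4, 5, 9 and 10 in KPG1 and 6, 11, 12, 15 and 16 in KP. Only KP 5, with number 6, lay within the KPG1 range, so effects of number and genotype can hardly be told apart.

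The intervals show how large a difference these libraries could have hidden. For 73 of the 77 genes (94.8%) the 95% confidence interval of the fold change lay within 2-fold in either direction, and for 60 (77.9%) within 1.5-fold. The shares among all genes tested were 67.2% and 36.6%. The 4 genes with wider intervals than 2-fold were Cox6a2, Cox6b2, Cox7a2l and Atp5l2. Within a group the libraries differed little: the median SD was 0.22 on the log2 CPM scale for the subunit genes and 0.35 for all genes tested. This was not particular to the subunits. For the 75 tested mitochondrial ribosomal protein genes the shares were 100% and 88%, and the median SD was 0.21. A mean of 20 CPM was reached by 62 of the 77 subunit genes and by 8240 genes in all. The part of abundance in the spread was not tested. The subunit Ndufa9 varied least (SD 0.073) and Cox6a2 most (SD 1.15). Summed over the 80 nuclear genes, the subunits took 0.608% ± 0.050 of the counts in KP and 0.609% ± 0.026 in KPG1 (SD, n = 5).

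**Figure D1:**
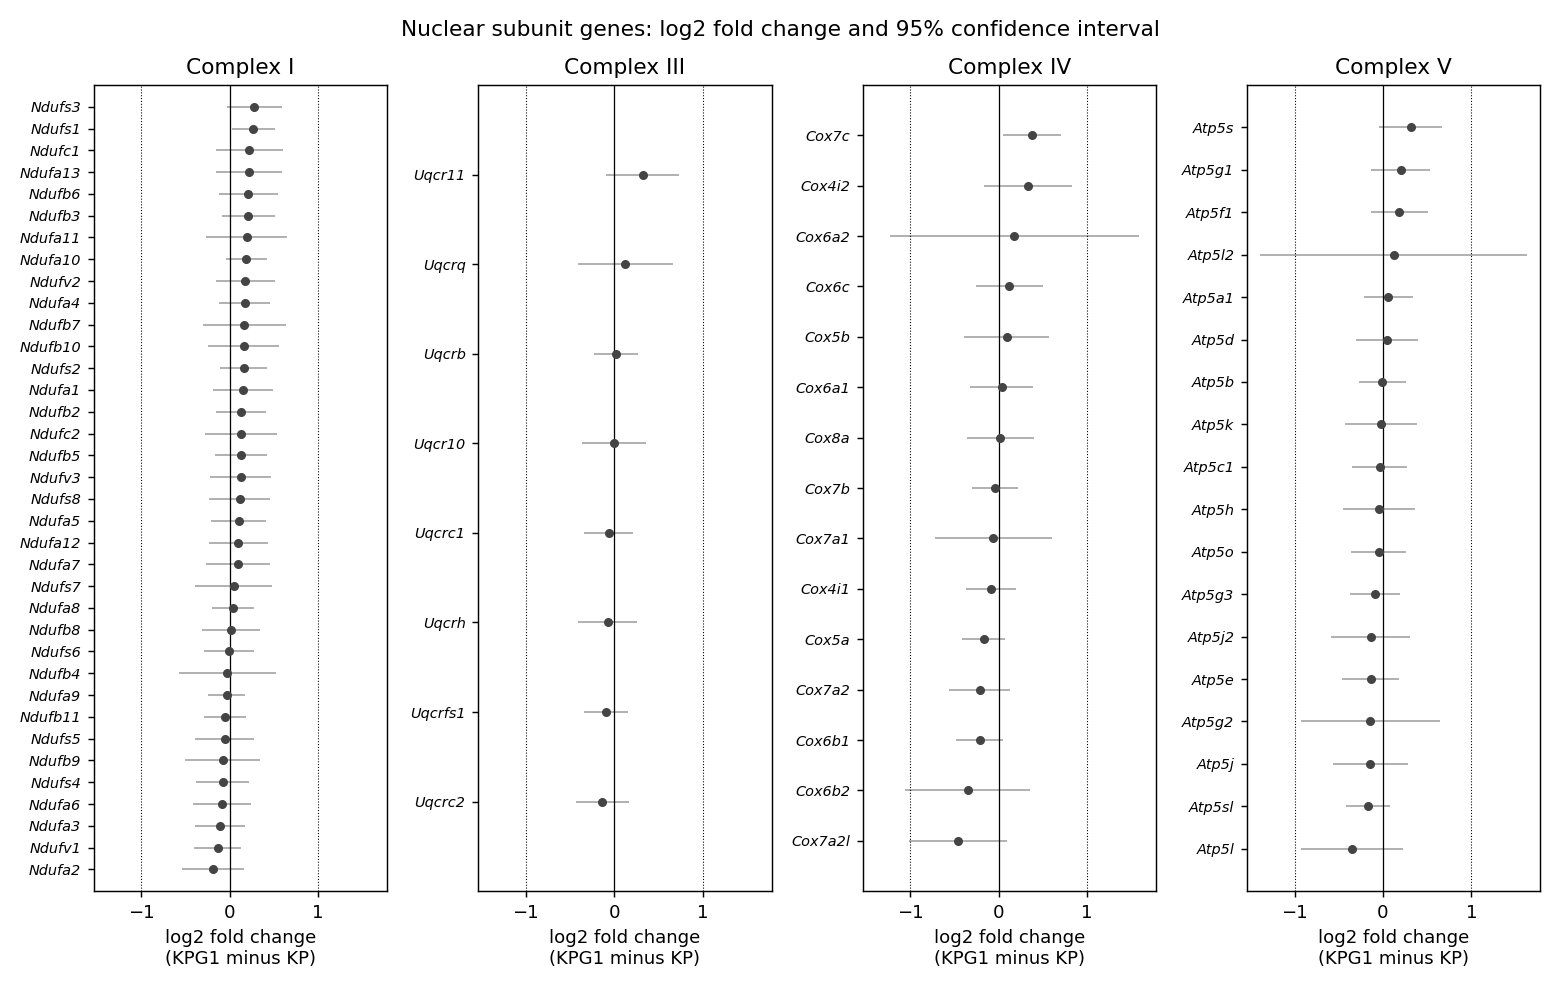
Log2 fold change (KPG1 minus KP, x axis) of each of the 77 tested nuclear subunit genes, by complex, with the 95% confidence interval of the limma fit across all genes as bars and dotted lines at 2-fold. All points lie between -0.46 and 0.38, and the bars of 75 genes include 0, Cox7c and Ndufs1 being the exceptions.

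Complex I had 25 genes higher and 11 lower, with a median log2 fold change of 0.12, and none was called. All 36 intervals lay within 2-fold. Without KP 1 or without KPG1 1 the split was 21 to 15 and the median 0.05. With length and GC trends removed it was 32 to 4 (median 0.15), and with the sample number 30 to 6 (median 0.19). Ndufs1 (chr1:63143596-63176833, minus strand) encodes an iron-sulfur subunit on the arm that receives electrons from NADH. It was at 91.7, 73.2, 84.9, 101 and 92.5 CPM in KP and at 112, 104, 105, 110 and 99.5 CPM in KPG1. Only KP 4 reached into the range of the KPG1 libraries. The log2 fold change was 0.27 ± 0.11 (SE, unadjusted p = 0.0334, adjusted p = 0.382). Ndufs3 (chr2:90894634-90904827), a core subunit of the same arm, was at 33.5, 41.2, 37.7, 35.6 and 38.4 CPM in KP and at 51.4, 34.6, 40.8, 55.4 and 45.8 CPM in KPG1. KPG1 1 and KPG1 4 were the high libraries, and KPG1 2 and KPG1 3 lay within the KP range (log2 fold change 0.28 ± 0.14, SE, adjusted p = 0.484). Ndufc1, an accessory subunit, had a log2 fold change of 0.22 ± 0.17 (SE), with KPG1 1 at 27.2 CPM and the other 9 libraries at 14.2 to 21.0 CPM.

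The complex I genes with the most negative values were Ndufa2 (-0.19), Ndufv1 (-0.14) and Ndufa3 (-0.11). Ndufv1 encodes the subunit that binds NADH, and its 95% interval ran from -0.40 to 0.13. It was at 90.1, 90.1, 90.1, 96.9 and 76.1 CPM in KP and at 94.6, 76.4, 66.6, 82.2 and 84.3 CPM in KPG1. The KP 5 and KPG1 1 libraries crossed over between the groups. Ndufa9, an accessory subunit, was the steadiest gene, at 92.5 ± 4.56 CPM in KP and 90.3 ± 4.63 CPM in KPG1 (SD, n = 5), with a 95% interval of the log2 fold change from -0.24 to 0.17.

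Complex III had 3 genes higher and 5 lower, with a median log2 fold change of -0.03, and 5 higher and 3 lower with the sample number. Uqcr11 (chr10:80402997-80406830), a small peripheral subunit, had the highest value, 0.32 ± 0.19 (SE, adjusted p = 0.539). It was at 20.5, 26.0, 39.4, 21.8 and 21.6 CPM in KP and at 29.3, 24.9, 35.1, 35.6 and 32.3 CPM in KPG1, where KP 3 exceeded every KPG1 library. The small subunits Uqcrq and Uqcrb were at 0.13 ± 0.24 and 0.02 ± 0.11 (SE). Among the larger components, Uqcrc2, a core protein, was at -0.13 ± 0.14, Uqcrfs1, the Rieske iron-sulfur protein, at -0.09 ± 0.11 and Uqcrh, the hinge protein next to cytochrome c1, at -0.07 ± 0.15 (log2 fold change ± SE). All 8 intervals were within 2-fold.

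Complex IV had 7 genes higher and 8 lower among the 15 tested, with a median of -0.04. The split turned to 10 and 5 with the sample number and 9 and 6 with trends removed, and ran from 4 and 11 (without KPG1 1) to 8 and 7 (without KPG1 3) when single libraries were left out. Its range was the widest of the 4 complexes, from -0.46 to 0.38. The highest value was that of Cox7c (chr13:86044816-86046904), a small structural subunit, at 11.99, 9.55, 9.23, 9.02 and 12.2 CPM in KP and 11.8, 14.3, 13.5, 15.03 and 13.0 CPM in KPG1. KP 1 and KP 5 lay at the level of KPG1 1, so the groups overlapped. The log2 fold change was 0.38 ± 0.15 (SE, unadjusted p = 0.0278, adjusted p = 0.365). This value is uncertain, because near-identical pseudogenes share Cox7c reads: with their counts added it became -0.04 ± 0.16.

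Cox7a2l (chr17:83501918-83517330) had the lowest value, -0.46 ± 0.25 (SE, adjusted p = 0.516). It was at 151, 138, 242, 149 and 290 CPM in KP and at 208, 154, 125, 104 and 107 CPM in KPG1. KP 3 and KP 5 were high, KPG1 3, KPG1 4 and KPG1 5 were low, and the rest overlapped. Its processed pseudogene Gm6969, 97.7% identical over 342 bases, was at 40.7 to 56.0 CPM in KP and 47.0 to 64.4 CPM in KPG1 (log2 fold change 0.26 ± 0.14, SE). Cox6b1 and Cox7a2, both nuclear structural subunits, were at -0.21 ± 0.12 and -0.21 ± 0.16 (log2 fold change ± SE).

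Complex V had 6 genes higher and 12 lower, with a median of -0.04. The split turned to 10 and 8 without KP 5 and also with length and GC trends removed, and was 9 and 9 with library weights or the sample number. The catalytic subunits Atp5a1 and Atp5b were the most abundant of all the members. Atp5a1 was at 733 ± 103 CPM in KP and 759 ± 54.4 CPM in KPG1, and Atp5b at 766 ± 103 and 757 ± 47.5 CPM (SD, n = 5). Their log2 fold changes were 0.06 and -0.01, and both 95% intervals stayed within 1.5-fold. In the stalk, Atp5f1, subunit b, was at 157, 173, 161, 190 and 258 CPM in KP and 233, 221, 193, 196 and 209 CPM in KPG1. Here KP 5 exceeded all KPG1 libraries and KP 1, KP 2, KP 3 and KP 4 lay below them (log2 fold change 0.18 ± 0.15, SE). Atp5j, coupling factor F6, was at 79.3, 73.1, 80.0, 110 and 153 CPM in KP and at 99.3, 82.7, 77.4, 86.2 and 86.4 CPM in KPG1. KP 5 was again the highest library, and without it the log2 fold change turned from -0.14 to 0.01.

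Of the remaining complex V genes with large values, Atp5l, subunit g of the membrane part, was at -0.35 ± 0.26 (log2 fold change ± SE) on 44 to 91 counts per library. Atp5s, coupling factor B, was at 8.44, 6.94, 6.77, 5.97 and 8.64 CPM in KP and 9.81, 7.78, 8.77, 9.60 and 9.66 CPM in KPG1. KPG1 2 alone lay inside the KP range (log2 fold change 0.32 ± 0.16, SE, adjusted p = 0.485). Atp5sl, which bears an ATP synthase name but is known as a complex I assembly factor, was at -0.17 ± 0.11. Atp5l2 is annotated as a processed pseudogene and held only 1 to 27 counts.

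Levels of different genes were compared as CPM per kilobase (kb) of the principal transcript, for the 55 tested nuclear genes that have no 85-base window in an annotated gene elsewhere in the genome. Complex V genes had the highest median, 131 CPM per kb (10 genes), followed by complex IV with 80.5 (10 genes), complex III with 53.5 (5 genes) and complex I with 47.5 (30 genes). These medians depend on which genes share a name. The complex IV genes include the isoforms Cox4i2, Cox6a2, Cox6b2 and Cox7a1, at 3.27 to 5.66 CPM per kb. Those of complex V include Atp5s and Atp5sl, at 5.15 and 9.50. The highest single gene was Atp5b, at 400 CPM per kb in KP and 395 in KPG1. Cox4i1 led complex IV at 331 and 311. In complex I, Ndufa4 led at 221 and 251. The Ndufa4 protein is now known as a subunit of complex IV, although its name placed it with complex I here. The lowest complex I value, 4.12 CPM per kb for Ndufb2, rests on a principal transcript of 4371 bases with a coding length of 315 bases, so a low value per kb can reflect the transcript chosen. The same holds for Atp5g1, at 1.75 and 2.00 CPM per kb on a transcript of 4715 bases.

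**Figure D2:**
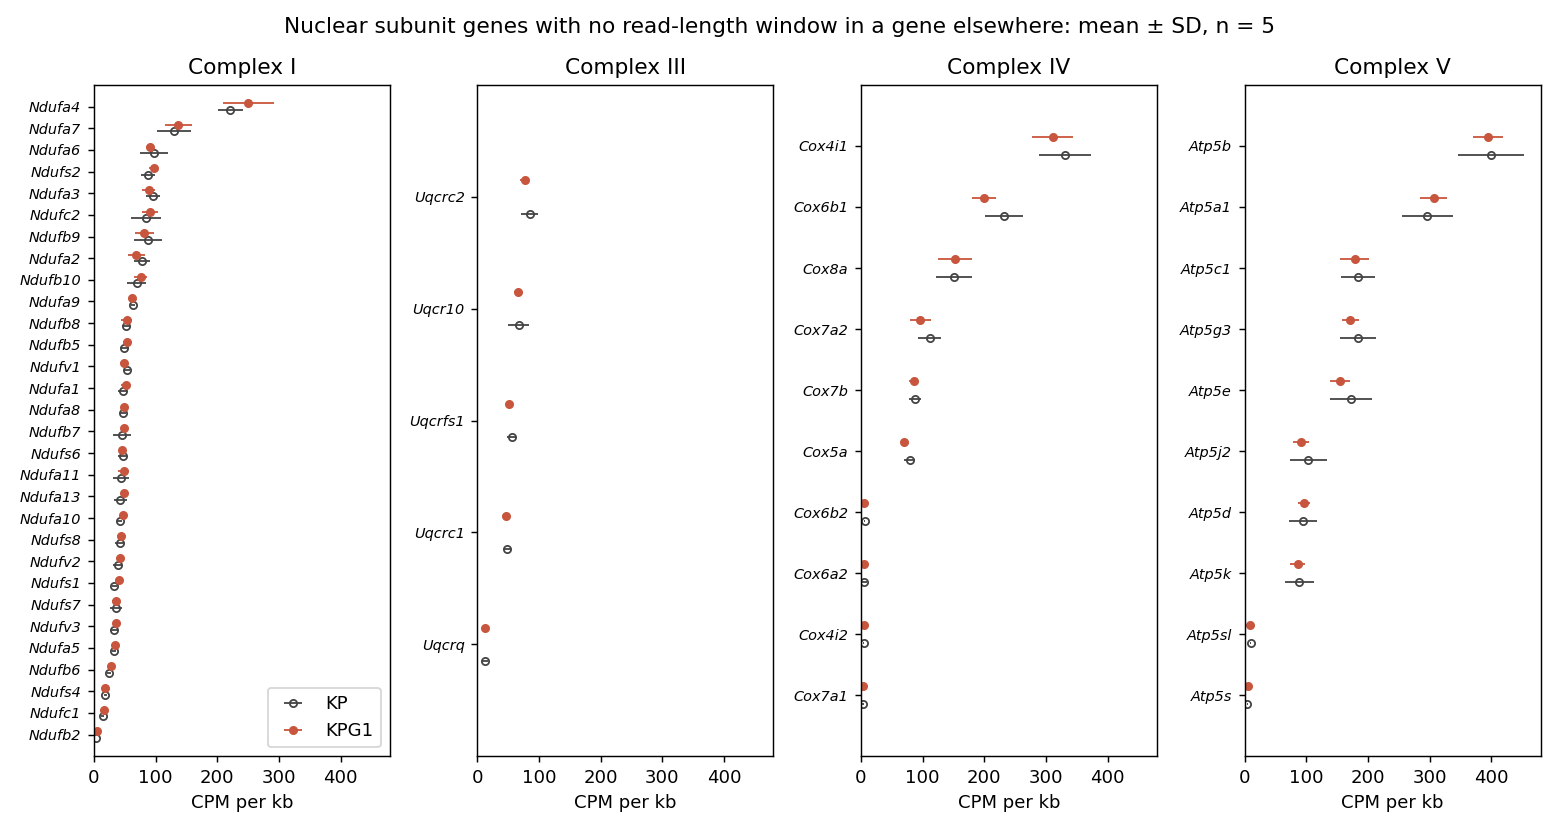
Level per kb of principal transcript (x axis, CPM per kb) of the 55 tested nuclear genes with no 85-base window in a gene elsewhere in the genome, by complex, as mean and SD of 5 KP (open) and 5 KPG1 (filled) libraries. Atp5b and Cox4i1 stand highest, and the muscle and testis isoforms Cox6a2, Cox7a1 and Cox6b2 lie near 0.

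Several complex IV subunits have isoforms that replace each other between tissues. The widely expressed form was the main one in each pair. Per kb, Cox4i1 was at 331 CPM in KP and 311 CPM in KPG1, against 4.13 and 5.04 for Cox4i2, an isoform known from lung and from low oxygen. Cox4i2 was at 2.70, 4.15, 3.59, 2.41 and 2.30 CPM in KP and 4.04, 3.65, 4.17, 2.74 and 3.88 CPM in KPG1. The groups overlapped (log2 fold change 0.33 ± 0.23, SE, adjusted p = 0.607). The heart and muscle form Cox6a2 was at 4.51, 7.98, 4.77, 1.27 and 0.482 CPM in KP and at 2.25, 3.21, 2.63, 2.51 and 3.54 CPM in KPG1, so that KP libraries lay both above and below all of KPG1. Its log2 fold change was 0.18 by limma and -0.42 by edgeR, so no direction can be given. Summed striated muscle markers were at 10.4 to 77.9 CPM in KP and 5.89 to 15.3 CPM in KPG1, and their part in the Cox6a2 values was not tested.

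The muscle form Cox7a1 was at 1.32 ± 0.45 CPM in KP and 1.24 ± 0.33 CPM in KPG1 (SD, n = 5), against 73.6 ± 12.1 and 63.5 ± 11.1 CPM for Cox7a2. The testis form Cox6b2 was at 3.54 ± 0.26 and 3.08 ± 1.41 CPM, against 144 ± 19.0 and 123 ± 11.7 CPM for Cox6b1. Cox6b2 varied in KPG1 alone, from 1.27 to 4.52 CPM. Cox6a1, Cox7b and Cox8a, the forms found in most tissues, had log2 fold changes of 0.04 ± 0.16, -0.04 ± 0.12 and 0.02 ± 0.17 (SE). Cox7b2, Cox8b and Cox8c, known from testis or muscle, had 0 counts in every library, which allows up to 3 counts in each, and were not tested.

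Subunit c of ATP synthase, whose ring turns as protons pass, is made from 3 genes that encode the same mature protein. Atp5g3 was at 131 ± 20.7 CPM in KP and 122 ± 10.1 CPM in KPG1 (SD, n = 5), with a log2 fold change of -0.09 ± 0.13 (SE). Atp5g1 was at 8.25 ± 0.98 and 9.43 ± 0.91 CPM (0.20 ± 0.15, SE). Atp5g2 (chr15:102662864-102672352) was at 62.8, 42.5, 68.2, 94.7 and 65.4 CPM in KP and at 87.7, 82.1, 21.6, 60.7 and 73.6 CPM in KPG1. KPG1 3 lay below every other library. The log2 fold change of Atp5g2 was -0.14 ± 0.36 (SE) with KPG1 3 and 0.22 without it. Of the 85-base windows of Atp5g2, 86.7% also occur in another annotated gene, the highest share among the nuclear members.

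The libraries differed in which complex stood high. In KPG1 1, 60 of the 77 nuclear genes were above their own median over the 10 libraries, and 34 of the 36 complex I genes were. In KP 1 the numbers were 18 of 77 and 5 of 36. For complex V the high libraries were KP 4 and KP 5, each with 14 of 18 genes above the median, and the low ones KP 1 and KP 2, each with 4 of 18. KPG1 1 was high for complex V as well, with 12 of 18. KP 5 had complex V 0.23 above and complex III 0.16 below the mean of all libraries on the log2 scale. The spread was wider among KP than among KPG1 libraries for complex III (SD 0.14 and 0.038 log2 CPM) and complex V (SD 0.19 and 0.085), and similar for complexes I (0.12 and 0.11) and IV (0.12 and 0.11). These differences in spread were not tested. KPG1 1 also had the largest share of its counts in its 10 most abundant genes, 11.1% against 5.30% to 8.16% in the others, and KP 1 the fewest alveolar type 2 counts. Their part in the subunit levels was not tested.

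**Figure D3:**
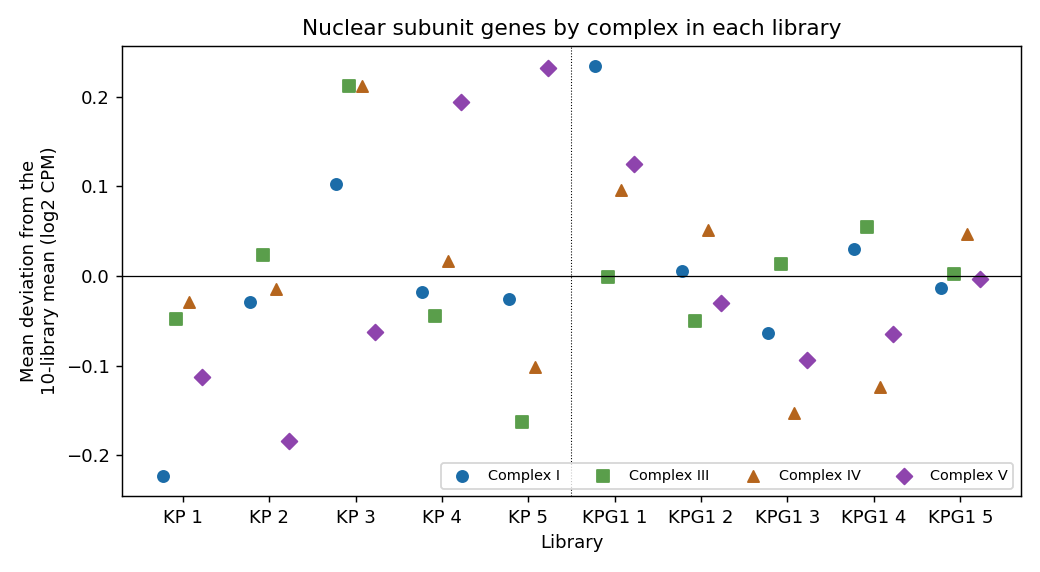
Mean deviation of the nuclear subunit genes from their 10-library mean (y axis, log2 CPM) in each library (x axis), with 1 symbol per complex. Complex I is lowest in KP 1 at -0.22 and highest in KPG1 1 at 0.23, while complex V is highest in KP 4 and KP 5.

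Respiratory chain genes have left many processed pseudogenes, which are copies of the mature mRNA put back into the genome without introns. By sequence, 23 nuclear members had 41 annotated pseudogenes of at least 95% identity over 85 bases or more, and 33 of these were counted as genes of their own. At least 1 window of 85 bases of the principal transcript occurred in another gene, at another place in the genome, for 22 of the 80 nuclear members, and for 10 of them more than 20% of windows did. For the other 58 no window did, although 11 of these share windows with a gene annotated at the same place, up to 30.1% of windows for Ndufb6. The 55 tested members with no shared window had a median log2 fold change of 0.02 and the 22 with shared windows 0.03.

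For 6 tested members a pseudogene held more counts than the gene. Atp5l averaged 59.1 counts per library and Gm10221 (chr5:24581554-24581862), identical to it over 309 bases, 879. Cox7c averaged 478 counts and Gm12338 (chr11:75599763-75599954), identical over 192 bases, 1008. Atp5g1 averaged 353 and Gm10039 796, Atp5h 1997 and Gm10250 3012, and Ndufa12 667 and Gm15920 729. The sixth was Atp5l2. Gm10221, Gm10039, Gm15920 and BC002163, below, were picked after their values were seen. The windows below show why such reads have no single origin. Each is 85 bases of coding sequence found letter for letter in both the gene and its pseudogene, and the capitals mark the bases on either side of an exon junction of the gene, where the pseudogene runs on without an intron.
Cox7c and Gm12338: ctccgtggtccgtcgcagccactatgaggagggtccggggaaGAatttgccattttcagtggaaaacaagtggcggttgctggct
Atp5l and Gm10221: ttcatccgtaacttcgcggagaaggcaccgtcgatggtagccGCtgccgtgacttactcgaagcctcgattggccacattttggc
When the counts of the pseudogenes were added to the gene, Atp5l moved from -0.35 to -0.12, Cox7a2l from -0.46 to -0.27, Ndufa12 from 0.10 to 0.22, Cox7c from 0.38 to -0.04 and Ndufs5 from -0.06 to 0.26 in log2 fold change, and none of the 77 members was called.

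Of the 18 pseudogene copies of nuclear members that passed the filter, 11 were higher and 7 lower in KPG1, and 1 was called. This was BC002163 (chr16:42955631-42955949, plus strand), a processed pseudogene of Ndufs5, an accessory subunit of complex I encoded at chr4:123712710-123718202. BC002163 was at 2.94, 3.55, 4.07, 4.91 and 4.36 CPM in KP and at 11.2, 11.6, 10.2, 10.5 and 7.22 CPM in KPG1, without overlap. Its log2 fold change by limma was 1.35 ± 0.21 (SE, adjusted p = 0.0314). Ndufs5 itself was at 15.9, 27.1, 24.4, 22.3 and 22.9 CPM in KP and at 24.0, 20.7, 21.3, 21.0 and 19.1 CPM in KPG1, with a log2 fold change of -0.06 ± 0.15 (SE). The call of BC002163 rested on all libraries but KP 5 and KPG1 5. Leaving out any of the other 8 took the adjusted p to between 0.0546 and 0.103. The sample number as covariate, which nearly follows genotype, took it to 0.262.

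The pseudogene differs from the Ndufs5 transcript by 2 bases of 319, shown here within one read length. Positions are counted from 1 at the first base shown, capitals mark the differing bases, and the substitutions from gene to pseudogene are T32C and A56G.
Ndufs5: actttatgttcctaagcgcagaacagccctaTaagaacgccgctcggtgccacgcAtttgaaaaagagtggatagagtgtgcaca
BC002163: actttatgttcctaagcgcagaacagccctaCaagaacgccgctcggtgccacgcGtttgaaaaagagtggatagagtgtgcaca
A read that covers either position can be placed only if the mice of both groups carry the annotated bases there. Neither this nor a difference in these bases between KP and KPG1 was checked. Of the 85-base windows of Ndufs5, 21.8% also occur in another gene. BC002163 lies inside the gene Zbtb20 on the same strand, and overlaps 0 of its annotated exons. Zbtb20 was at 120, 118, 80.9, 98.2 and 129 CPM in KP and at 113, 109, 114, 140 and 141 CPM in KPG1, a log2 fold change of 0.18 ± 0.15 (SE, adjusted p = 0.668).

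**Figure D4:**
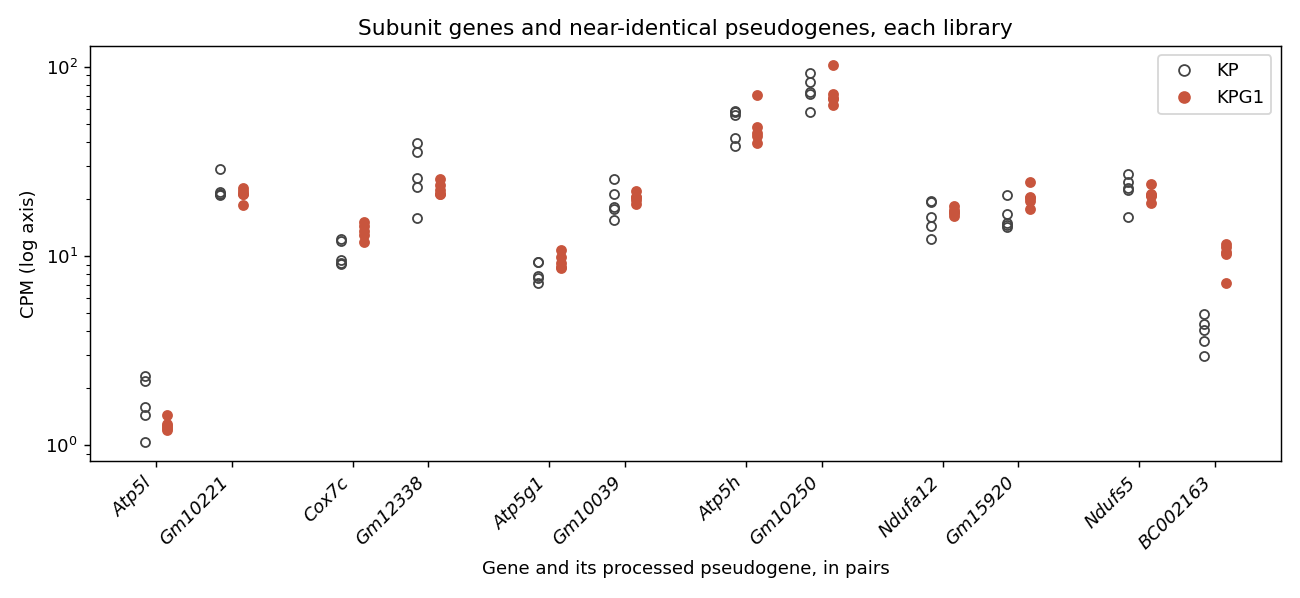
CPM (log axis) of 6 subunit genes, each beside a near-identical processed pseudogene, in every KP (open) and KPG1 (filled) library. Pseudogenes lie above their genes for Atp5l, Cox7c, Atp5g1 and Atp5h, and BC002163 is the one whose groups are apart, at 2.94 to 4.91 CPM in KP and 7.22 to 11.6 CPM in KPG1.

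The promoters of nuclear respiratory genes are known for sites of NRF1, of ETS factors such as GABP, and of YY1. Promoter windows from RefSeq (GRCm38.p6, 250 bases before to 50 after the start) were found for 63 of the 80 nuclear members and searched on both strands for GCGCATGC (NRF1 core), CCGGAAG (ETS) and AAGATGGCG (YY1), counting a gene if any of its promoters held the letters. None of the 3 strings holds another. The NRF1 core was in 9 of 63 members (14.3%), against 5.41% of tested genes and 3.05% of all genes with a promoter. The ETS letters were in 14 (22.2%), against 18.2% and 9.93%, and the YY1 letters in 7 (11.1%), against 3.17% and 1.64%. At least 1 of the 3 was in 25 members (39.7%), against 24.6% and 13.6%. The median log2 fold change was -0.02 for the 25 members with a motif and 0.03 for the 36 tested members without one. The windows below, 1 for the most abundant member per kb of complexes I, IV and V with the NRF1 core and 20 bases on either side of it upstream of the start, show the core in capitals. In the Ndufa6 window it reads as the reverse complement, GCATGCGC.
Ndufa6 (chr15:82354347-82354394, minus strand): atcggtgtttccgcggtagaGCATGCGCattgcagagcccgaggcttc
Cox6a1 (chr5:115349093-115349140, minus strand): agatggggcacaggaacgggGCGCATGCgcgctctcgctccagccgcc
Atp5g2 (chr15:102671062-102671109, minus strand): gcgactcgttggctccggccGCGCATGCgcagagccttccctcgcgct
These 3 genes had log2 fold changes of -0.09, 0.04 and -0.14. Atp5g2 ranked first in complex V at 90.2 CPM per kb, a level left uncertain by its shared windows (86.7%). Atp5k, which also holds the core and has no shared window, was at 87.7 CPM per kb.

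Genes that work with the subunits were read from the same fit, and limma called none of them. All 4 genes of complex II were tested, 3 with a positive and 1 with a negative fold change, and their median was 0.06. Complex I assembly factors were 11 higher and 5 lower of 16 (median 0.07), and complex III assembly factors 4 and 1 of 5 (median 0.06). Complex IV assembly factors were 11 and 8 of 19 (median 0.02). Among them Cox17, which carries copper to complex IV, had a log2 fold change of -0.90 ± 0.24 (SE, adjusted p = 0.194), at 12.6 to 22.3 CPM in KP and 6.21 to 13.0 CPM in KPG1. DESeq2 called Cox17 (adjusted p = 0.0305). Tmem70, an assembly factor of ATP synthase, was at 17.2 to 20.3 CPM in KP and 20.04 to 27.5 CPM in KPG1 (log2 fold change 0.36 ± 0.12, SE, adjusted p = 0.2997). The remaining electron carriers and subunits outside the naming rule, 8 tested genes that include the cytochromes Cyc1 and Cycs, were 4 higher and 4 lower.

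Genes that serve mitochondrial DNA and its transcripts were also read. Of 11 genes for upkeep and transcription of mitochondrial DNA, 6 were higher, among them Tfb1m (0.63 ± 0.23, adjusted p = 0.317) and Polrmt, the mitochondrial RNA polymerase (0.53 ± 0.23, adjusted p = 0.411, log2 fold change ± SE). Of 12 genes for stability of mitochondrial mRNA 10 were higher, with Fastkd2 at 0.44 ± 0.14 (adjusted p = 0.261). Nuclear regulators of mitochondrial genes were 6 higher and 3 lower of 9, with a median log2 fold change of 0.07. Among them Ppargc1a, which encodes the coactivator PGC-1alpha, was at 4.80 to 16.9 CPM in KP and 13.7 to 21.0 CPM in KPG1 (log2 fold change 0.84 ± 0.28, SE, adjusted p = 0.282). Gabpb1 was at 0.32 ± 0.14 (adjusted p = 0.428). The genes named here had unadjusted p-values under 0.05 by limma. They were 2 of 11, 1 of 12 and 2 of 9 genes, all higher, where 5.26% of all genes tested were higher at that p.

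The ribosomes on which the chain's parts are translated differed in their values. The 75 tested mitochondrial ribosomal protein genes had a median log2 fold change of 0.02, with 41 higher and 34 lower. Mrpl44 was at 0.37 ± 0.11 (SE, adjusted p = 0.239). The 82 cytosolic ribosomal protein genes had a median of -0.28, with 71 lower. Of these, 23 had an unadjusted p under 0.05 by limma, where 6.31% of all genes tested were lower at that p. The smallest adjusted p was 0.0614, for Rpl9. Pseudogene copies of ribosomal protein genes were not searched for. The median of the 77 nuclear subunit genes was 0.02.

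**Figure D5:**
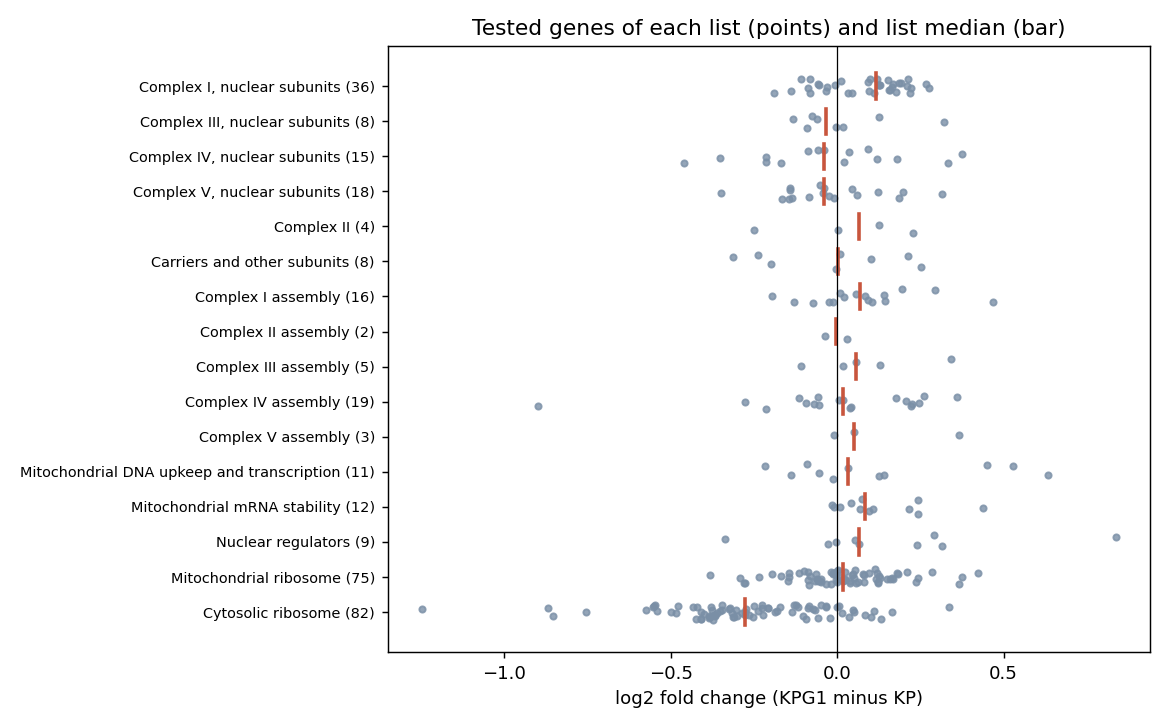
Log2 fold change (KPG1 minus KP, x axis) of every tested gene (points) of the nuclear subunits by complex and of the companion lists, with the number of genes in parentheses and the list median as a bar. The medians of the subunit and mitochondrial lists lie between -0.04 and 0.12, and that of the cytosolic ribosome at -0.28.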

How the data were processed

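Poly(A) RNA of 10 CD45-negative lung tumor libraries (5 KP, 5 KPG1) was sequenced from one end with a stranded mRNA kit. Per the labels and the methods, the authors aligned trimmed reads to mm10 with HISAT2, and the submitters' processing notes name bcl2fastq 2.17, Cutadapt 1.4.2 and featureCounts 1.4.4. Strand setting, treatment of reads with several origins and annotation release are not given in the sources used here, so how reads shared by a gene and its pseudogenes were counted is unknown. The deposited table gives raw counts, whole reads for each gene, and its 390170 values matched the files of single libraries without exception. The deposited log2 values were made by the authors with TMM and voom from these counts and were used only for this comparison. The alleles that start the tumors are not reported here.

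Counts were filtered with filterByExpr of edgeR 4.0.16, which left 16216 genes, scaled by TMM and fitted with voom and limma 3.58.1 (R 4.3.3), KPG1 against KP, with Benjamini-Hochberg adjustment over all genes tested and a threshold of 0.05. CPM values use TMM library sizes, and log2 CPM a prior count of 2. The study filtered on TPM, for which filterByExpr stood in. Intervals are 95% intervals of that fit. Slc2a1 also had an exact permutation test. The fit was tested on simulated data. Chi-square comparisons of replicate libraries found no duplicates.

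Members and lists were chosen with earlier results of these data known. Named were all mt- members, members past the threshold, in each complex the 3 highest and 3 lowest fold changes at a mean of 1 log2 CPM or more, and the highest and lowest level per kb, isoforms, members not tested, up to 5 genes of each companion list with an unadjusted p under 0.05, and up to 5 tested pseudogenes of at least 95% identity. Copies were found with blastn 2.17.0 and exact 85-base windows in GENCODE M21 transcripts of mm10, using APPRIS principal transcripts. No genome sequence was used. Alternatives were edgeR, DESeq2 1.42.0, RLE factors, library sizes without mt- genes, no filter, a mean of 20 CPM, library weights, a replicate block, the sample number, removal of length and GC trends, each library left out, and, chosen after seeing the data, pseudogene counts added to their gene. Leaving mt- genes out of the library sizes could change nothing, because they held 0 counts.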

Additional observations from a re-analysis of the deposited data

Results flagged for a closer look

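In 80 groups of 5 libraries (each named nuclear gene, BC002163 and the mean of each complex, in KP and in KPG1) 3 had a library whose distance to its nearest neighbor made up more than 0.71 of the whole range of the group. Chance alone gives about 4 in 80. Atp5g2 in KPG1 3 was at 4.44 log2 CPM, with the other KPG1 libraries at 5.93 to 6.45. Ndufa3, an accessory subunit of complex I, was at 5.29 log2 CPM in KP 1, with the other KP libraries at 5.66 to 5.75. BC002163 was at 2.86 log2 CPM in KPG1 5, with the other KPG1 libraries at 3.36 to 3.54, and remained above all KP libraries there. No cause was tested.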

How the results depend on the processing

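No subunit gene was called under any of the alternatives run, edgeR and DESeq2 included, and the median log2 fold change of the nuclear subunits stayed between -0.01 and 0.04 when single libraries were left out and at 0.12 with the sample number as covariate. Subunit genes with an unadjusted p under 0.05 were 2, and 0 at a mean of 20 CPM, 0 with the replicate block, 5 with length and GC trends removed, 1 with pseudogene counts added and 0 to 4 without single libraries (4 without KP 5). Over all genes, calls were 10 higher and 18 lower in KPG1. They were 125 and 423 by DESeq2, 51 and 177 with library weights, 5 and 31 at a mean of 20 CPM, 4 and 4 with the sample number, 4 and 1 with the replicate block, and 3 to 71 and 1 to 223 without single libraries (71 and 223 without KP 5). Lower calls were 29 by edgeR, 31 with no filter and 10 with trends removed. The replicate numbers did not pair the libraries: same-numbered ones correlated at -0.12, 0.08, 0.06, 0.06 and -0.16, and 1 of the 5 KP libraries correlated best with its own number. The block took the adjusted p of BC002163 to 0.194 and the sample number to 0.262, at log2 fold changes of 1.35 and 1.27. The share of counts in mt- genes was 0 under each denominator, and their fold change could not be fitted.

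Of 1216 values of 59 named genes under alternatives, 1115 kept their direction and their side of the threshold, and 38 genes never turned. The log2 fold changes that turned were these. By DESeq2, Atp5l2 was at -0.34 and Cox6a2 at -0.44. By edgeR, Atp5l2 was at -0.32 and Cox6a2 at -0.42. With length and GC trends removed, Cox4i1 was at 0.0075, Cox7a1 at 0.0833, Gm10250 at 0.10, Ndufa3 at 0.0121, Uqcrb at -0.0218 and Uqcrh at 0.0099. At a mean of 20 CPM, Cox8a was at -0.0036 and Uqcrb at -0.0052. With no filter, Atp5b was at 0.0012 and Gm11966 at 0.0098. With pseudogene counts added, Cox7c was at -0.0383. With the replicate block, Atp5l2 was at -0.0274 and Cox6a2 at -0.13. With the sample number, Atp5b was at 0.14, Atp5g2 at 0.19, Atp5l2 at -0.0962, Cox4i1 at 0.0206, Cox7a1 at 0.20, Cox7a2 at 0.0207, Gm10250 at 0.0404, Gm12338 at 0.0488, Ndufa2 at 0.12, Ndufa3 at 0.0046, Ndufv1 at 0.0689 and Uqcrh at 0.0265. With library weights, Cox6a2 was at -0.38, Cox7b at 0.0270, Cox8a at -0.0088, Gm11966 at 0.20 and Uqcrq at -0.0533. Without single libraries the values ran from -0.0543 to 0.0414 for Atp5b, -0.31 to 0.22 for Atp5g2, -0.24 to 0.0128 for Atp5j, -0.45 to 0.55 for Atp5l2, -0.0695 to 0.11 for Cox6a1, -0.44 to 0.56 for Cox6a2 and -0.21 to 0.0829 for Cox7a1. They ran from -0.0814 to 0.0030 for Cox7b, -0.0636 to 0.15 for Cox8a, -0.17 to 0.0372 for Gm10250, -0.12 to 0.24 for Gm11966, -0.0281 to 0.0731 for Uqcrb, -0.18 to 0.0210 for Uqcrh and -0.0951 to 0.31 for Uqcrq. Apart from these, Cox17, Mrpl44, Rps14, Rps19, Rpl9, Rps13, Rps25 and Slc2a1 came to be called by DESeq2 without a change of direction, Rpl9, Rps13 and Slc2a1 also with library weights, and Rpl9, Rps13, Rps25 and Slc2a1 also without KP 5. None of the genes that turned was called, and the cause was not tested. Low counts limit Atp5l2, Atp5l, Cox7a1 and Cox6a2.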
